A study of Mus musculus with 6 samples.

Results

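The cell cycle and DNA replication genes considered here are 50 mouse genes that act between the G1 phase and cell division. They were chosen by symbol, from the G1 cyclins and their inhibitors to the spindle checkpoint, and not by their level on the arrays. A gene was read from the probe annotated to its symbol, with Cdk1 also taken as Cdc2a and Cdc45 as Cdc45l, and where several probes carried a symbol the brightest on average over all arrays was used. Of the 50 genes, 48 had a named probe, and 43 were above background on at least 2 arrays and were tested among 9568 genes in all. Background was the 95th percentile of the probes of olfactory and vomeronasal receptors on an array, and intensities are given after quantile normalization over the 6 arrays.

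The arrays measured total RNA of sorted Foxp3-GFP+ peripherally induced regulatory T (pTreg) cells, which arise from naive CD4+ T cells outside the thymus. Blimp1CKO (CKO) cells came from C57BL/6 Prdm1 flox/flox CD4-Cre+ mice and control (Ctrl) cells from Prdm1+/+ CD4-Cre+ mice, so that both carried the CD4-Cre transgene, which acts in all T cells, as well as the Foxp3-GFP reporter. Naive cells of both genotypes from pooled lymph nodes and spleens of young adult donors had been injected together into RAG1-/- mice, which lack their own T and B cells but keep myeloid, erythroid and NK cells, and pTreg cells were sorted some weeks later by their Thy1 allotype, Thy1.2 for CKO and Thy1.1 for Ctrl. There were 3 CKO and 3 Ctrl arrays, and the allotype cannot be told apart from the genotype. The labels call the cells peripheral Treg in one field and iTreg in another, and add the letters P+I to replicates 2 and 3 only, which lie on a second slide. The labels of replicates 2 and 3 give the CKO and the Ctrl sample of a number a shared day, and those of replicate 1 share a slide, so CKO and Ctrl arrays of one number are treated as a pair.

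All 8 markers of T and Treg cells, among them Cd3e, Cd4 and Foxp3, were above background, and their summed intensity was between 12749 and 16747 in CKO and between 18306 and 24455 in Ctrl cells. Prdm1, the gene of Blimp1, had intensities of 561, 341 and 704 on CKO arrays and of 18.9, 50.9 and 49.2 on Ctrl arrays. Whether this probe lies inside the floxed stretch is not stated in the labels, the annotation or the methods, so these values are no check on the deletion. Of 9 named myeloid markers 8 were above background on at least 2 arrays, and the summed intensity of the 9 was 13130.5, 1923 and 23259 in CKO replicates 1, 2 and 3, against 25772 in Ctrl replicate 1, 2628 in replicate 2 and 33478 in replicate 3. The sum of 4 erythroid markers was 754, 571 and 1641 on CKO arrays and 1330.5, 551 and 1901 on Ctrl arrays. Both sums were thus lowest in replicate 2 and highest in replicate 3 of either genotype. The markers of NK and CD8 T cells summed to between 557 and 951 in CKO and between 694 and 1072 in Ctrl cells. Of these 5 markers 3, Cd8a among them, were never above background. Nearly all of the sum was Cd8b1, at 544 to 934 in CKO and 656 to 1031 in Ctrl cells. The markers of B cells and of epithelium summed to at most 26.4 and 71.5 on any array. In bulk samples like these, fewer cells of a type and less RNA per cell cannot be told apart.

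A dividing T cell passes from G1 into S phase when D-type cyclins with Cdk4 or Cdk6, and then cyclin E with Cdk2, inactivate the retinoblastoma protein and free the E2F factors, which switch on the genes of DNA synthesis. In G1 the Mcm proteins are loaded onto replication origins, and after replication cyclins A and B with Cdk1, the Polo and Aurora kinases and the anaphase-promoting complex (APC/C) carry the cell through mitosis. Blimp1 is a zinc finger repressor that in plasma cells represses Myc and helps end proliferation, and in T cells is linked to effector differentiation and to Il10 expression.

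No gene of the 43 differed between CKO and Ctrl cells at an adjusted p under 0.05 (limma, Benjamini-Hochberg over all 9568 genes), where 0.272% of all genes did. By the thresholds of the study's methods, which were a difference of 1.5-fold or more and an unadjusted p under 0.05, Mcm3 was higher in CKO cells and E2f2 was lower. Over all genes 3.07% were called higher and 4.36% lower by these thresholds, and 8.05% had an unadjusted p under 0.05, which Mcm3 and E2f2 alone had among the 43. The same genes were those whose CKO and Ctrl arrays did not overlap, Mcm3 above and E2f2 below, where 5.96% of all genes had CKO above and 7.12% had CKO below. The shares of the 43 genes are thus at or under those of all genes. This count of 2 rested on single arrays: it was 0 without CKO replicate 1, 1 without Ctrl replicate 1 and 5 without CKO replicate 2, and with both arrays of a number left out it was 0 without replicate 1, 1 without replicate 2 and 1 without replicate 3.

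The 43 log2 differences, CKO minus Ctrl, ran between -0.76 and 0.70 with a median of 0.06, against a median of 0.02 over all genes. A pair of CKO and Ctrl arrays of one number was read only where at least 1 of its arrays was above background, since otherwise just the floors differ. CKO was above Ctrl in all 3 pairs for 6 of the 43 genes, where 17.1% of all genes did so, and below in all 3 pairs for 6 genes, where 17.2% did. The direction was not the same in every pair. CKO was the higher array for 16 of 43 genes in pair 1 (53.6% of all genes), for 14 of 41 in pair 2 (49.2% of all genes) and for 31 of 41 in pair 3 (48.2% of all genes), and the median log2 difference of these genes was -0.12, -0.15 and 0.44 in pairs 1, 2 and 3, against 0.04, -0.01 and -0.02 over all genes. Without CKO replicate 3 the median of the 43 genes was -0.37, so its sign depended on that array. The replicates also spread more for these genes than for most: their median standard error was 0.42 on the log2 scale, and that of all genes 0.29. A missed threshold therefore does not show that a gene was equal in the genotypes.

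**Figure D1:**
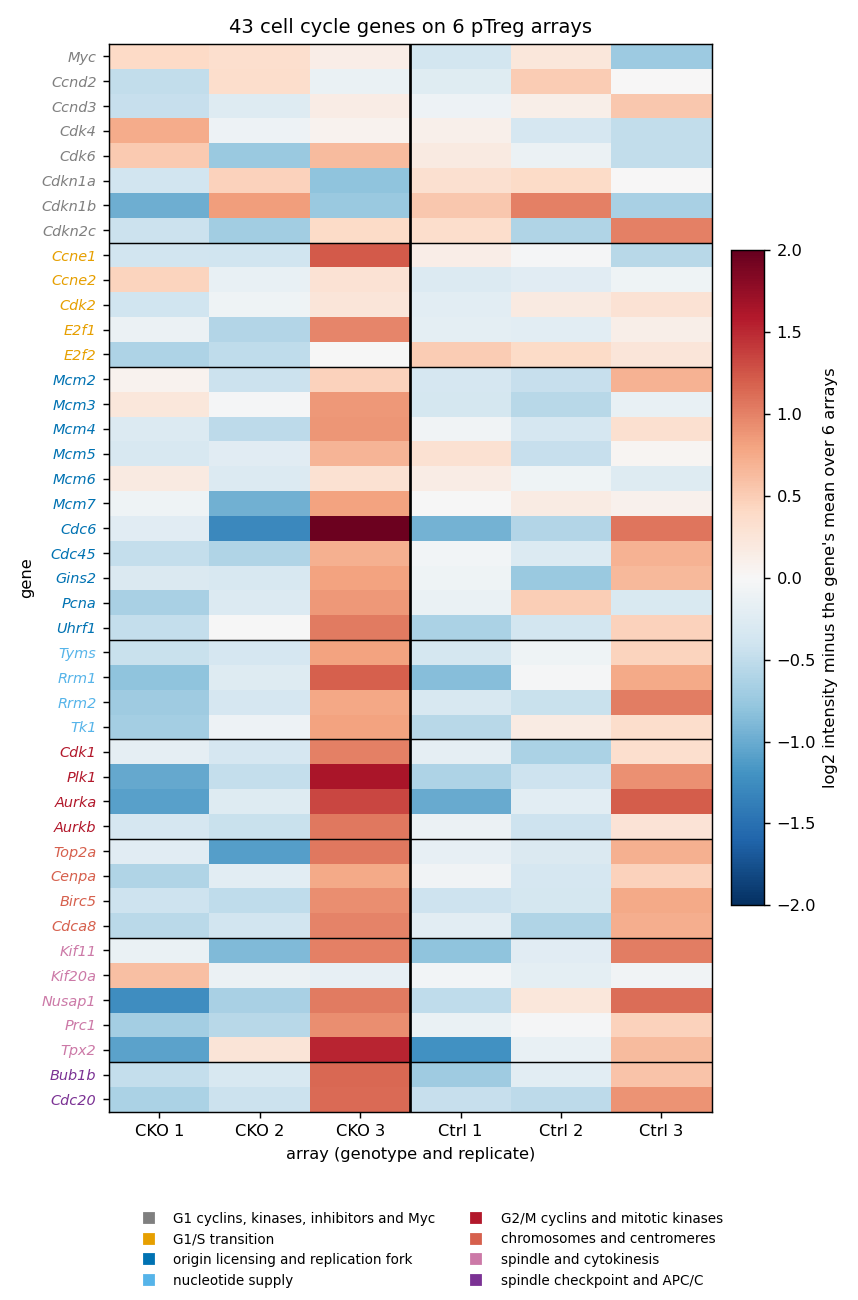
Log2 intensity of the 43 tested cell cycle genes (rows, grouped by phase) on the 3 CKO and 3 Ctrl arrays (columns), as the difference from each gene's mean over the 6 arrays. The columns of replicate 3 are red for most S phase and mitotic genes in both genotypes, while E2f2 is blue or white in CKO and red in Ctrl cells.

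The 8 regulators of G1 are the group in which the most genes kept one direction. CKO was above Ctrl in all 3 pairs for Myc and Cdk4, where 17.1% of all genes were. It was below for Ccnd2, Ccnd3 and Cdkn2c, where 17.2% of all genes were. The median log2 difference of the 8 regulators was -0.28, or -0.06 with the mean of a gene's probes in place of the brightest. On the brightest probes none reached the study's thresholds. Myc, which drives the growth of activated lymphocytes, had intensities of 134, 128 and 111 on CKO arrays and of 79.1, 119 and 61.2 on Ctrl arrays. Only Ctrl replicate 2 came up to the CKO arrays, so the groups overlapped. The difference was 0.57 (standard error 0.29, adjusted p = 0.71 from limma). Cdk4, the kinase partner of the D cyclins, gave 1262, 703 and 791 in CKO and 809, 594 and 532 in Ctrl cells. CKO was higher in every pair, by log2 values of 0.64, 0.24 and 0.57, and replicate 1 was the highest array of both genotypes (difference 0.48, standard error 0.30, adjusted p = 0.80, limma). A second Cdk4 probe differed by 0.48. Cdk6, its close relative, had 22.0, 7.25 and 23.7 in CKO cells, where replicate 2 was not above background, and 17.4, 14.1 and 10.9 in Ctrl cells, with no common order in the pairs.

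Among the D-type cyclins, which carry growth factor and antigen signals to Cdk4 and Cdk6, Ccnd3 stood at 285, 329 and 435 in CKO and at 365, 426 and 572 in Ctrl cells. The pair differences were close to each other, at -0.36, -0.38 and -0.39, although the arrays of the groups overlapped since replicate 3 was high in both (difference -0.38, standard error 0.27, adjusted p = 0.86, limma). Compared within pairs, its unadjusted p was 0.0764 in limma, and a dimmer second probe had the opposite sign, at 0.31. For Ccnd2 the intensities were 2068, 3717 and 2644 on CKO and 2444, 4117 and 2917 on Ctrl arrays. Replicate 2 was the highest of both genotypes and the difference of -0.18 was small beside its standard error of 0.31, and another bright Ccnd2 probe had the opposite sign, at 0.17.

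Cdkn1a, Cdkn1b and Cdkn2c encode p21, p27 and p18, inhibitors of the cyclin-dependent kinases. For Cdkn1a the brightest probe gave 675, 1214 and 504 in CKO and 1099, 1149 and 885 in Ctrl cells. CKO was lower in pairs 1 and 3, while CKO replicate 2 was the highest array of all 6 (difference -0.48, standard error 0.34, adjusted p = 0.86, limma). The other 2 Cdkn1a probes did not have this exception. One read 249.5, 207 and 156 in CKO against 445, 435 and 296 in Ctrl cells, and the other 229, 215 and 114 in CKO against 355, 242 and 230.0 in Ctrl cells. On both, every CKO array lay below every Ctrl array, with differences of -0.94 (standard error 0.28, unadjusted p = 0.00978, limma) and -0.61 (standard error 0.33). The first of these passed the study's thresholds, which the brightest probe did not, so that the result for Cdkn1a depended on the probe. Cdkn2c was 58.6, 48.8 and 103 in CKO and 100.3, 51.9 and 158 in Ctrl cells, lower in CKO in every pair but with replicate 3 high in both genotypes (difference -0.49, standard error 0.45, adjusted p = 0.91, limma). Cdkn1b was above background on 3 arrays only, 1 CKO and 2 Ctrl and neither of replicate 3, at 6.35, 26.4 and 8.80 in CKO and 21.5, 29.8 and 7.12 in Ctrl cells.

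At the G1/S transition E2f2 was the gene with the lowest CKO level relative to Ctrl. E2f2 encodes one of the activating E2F factors, and T cells of mice that lack it proliferate more readily. Its intensities were 51.8, 55.8 and 78.6 on CKO arrays and 114, 103 and 94.4 on Ctrl arrays. The highest CKO array, replicate 3, was below the lowest Ctrl array, also replicate 3. The means were 62.1 ± 14.5 in CKO and 104 ± 9.57 in Ctrl cells (SD, n = 3 each), with a log2 difference of -0.76 (standard error 0.24, unadjusted p = 0.0147, adjusted p = 0.38, limma). In the pairs the difference was -1.13, -0.88 and -0.26. A second probe read 43.6, 40.1 and 73.8 in CKO against 102, 111 and 69.1 in Ctrl cells, a difference of -0.87 (standard error 0.32), but on it the arrays of replicate 3 did not differ in this direction. With one array left out, the unadjusted p of E2f2 was 0.052 without CKO replicate 1 and at most 0.048 without any other, and with 2 pairs only it was 0.098 without replicate 1 and 0.097 without replicate 2.

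The other genes of the transition showed no common direction. E2f1, which shares targets with E2f2, was 59.2, 42.4 and 126 in CKO and 55.8, 55.4 and 69.6 in Ctrl cells, with CKO replicate 3 above all others (difference 0.19, standard error 0.39, adjusted p = 0.98, limma). Ccne1, a cyclin that activates Cdk2, had 12.7, 12.5 and 38.6 in CKO and 18.1, 16.3 and 11.2 in Ctrl cells, so that CKO was the lower array in pairs 1 and 2 and much the higher in pair 3. Its relative Ccne2 was above background on 3 arrays, 2 CKO and 1 Ctrl and neither of replicate 2, at 13.8, 1.77 and 12.4 in CKO and 8.35, -1.63 and 0.0712 in Ctrl cells.

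Because E2f2 and Mcm3 were the genes that passed the study's thresholds, the windows around their start sites are shown, each from 250 bases before to 50 bases after the start (RefSeq, GRCm38.p6). Capitals mark the letters of the CCAAT box (CCAAT), bound by NF-Y, and of E2F sites (TTTCCCGC, TTTCGCGC, TTTGCCGC or TTTGGCGC), on either strand. TTTGAA, the cell cycle genes homology region (CHR) of mitotic genes, and AGNGAAAG, the core of the Blimp1 site, were searched in the same way, may overlap the others, and have no match in these windows, which says nothing about the factors. The E2f2 window lies at chr4:136172024-136172323 on the plus strand, and the Mcm3 window at chr1:20820263-20820562 on the minus strand.
E2f2: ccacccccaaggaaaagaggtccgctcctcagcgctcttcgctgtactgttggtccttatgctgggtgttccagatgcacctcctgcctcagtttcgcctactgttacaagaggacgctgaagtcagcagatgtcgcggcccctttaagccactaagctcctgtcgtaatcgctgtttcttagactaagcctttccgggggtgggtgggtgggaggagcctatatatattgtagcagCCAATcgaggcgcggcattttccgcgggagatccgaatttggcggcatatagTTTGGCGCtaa
Mcm3: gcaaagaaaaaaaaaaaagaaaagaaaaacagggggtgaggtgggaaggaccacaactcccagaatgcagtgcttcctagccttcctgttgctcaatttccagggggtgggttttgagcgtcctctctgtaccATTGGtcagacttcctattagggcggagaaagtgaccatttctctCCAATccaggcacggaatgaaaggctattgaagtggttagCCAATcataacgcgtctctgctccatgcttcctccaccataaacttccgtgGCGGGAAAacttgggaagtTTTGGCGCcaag
Both windows hold E2F letters downstream of the start, at base 40 in E2f2 and at bases 20 and 39 in Mcm3, and E2F letters occur in 2.26% of the 32851 windows of the table. They are not particular to these genes. Windows of Mcm5, Mcm6, Mcm7, Cdc6, Cdk1, Cdk2 and Uhrf1, none of which passed the study's thresholds, hold them as well. A second E2f2 window, which starts at base 136180532, holds CCAAT and CHR letters and none of the others.

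Mcm3, a subunit of the Mcm2-7 helicase that unwinds DNA at replication forks, was the single replication gene past the study's thresholds. It had intensities of 136, 114 and 211 on CKO arrays and of 91.5, 78.9 and 105 on Ctrl arrays. Every CKO array was above every Ctrl array, and replicate 3 was the highest of each genotype. The means were 154 ± 51.0 in CKO and 91.8 ± 13.1 in Ctrl cells (SD, n = 3 each), with a log2 difference of 0.70 (standard error 0.29, unadjusted p = 0.04, adjusted p = 0.56, limma). It was higher in CKO in each pair, by 0.57, 0.53 and 1.01. The unadjusted p was above 0.05 without CKO replicate 1 (0.059), without CKO replicate 3 (0.14), without Ctrl replicate 1 (0.076) and without Ctrl replicate 2 (0.12), and it ran between 0.070 and 0.12 with both arrays of a number left out.

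The partners of Mcm3 in the helicase had smaller differences, with a log2 difference of 0.07 for Mcm2 (standard error 0.37), of 0.09 for Mcm5 (standard error 0.34) and, among genes named after their values were seen, 0.05 for Mcm4, 0.14 for Mcm6 and -0.16 for Mcm7. Whether Mcm3 differed from its partners was not tested. Mcm2 had intensities of 290.4, 206 and 382 in CKO and 221, 202 and 447 in Ctrl cells, highest in replicate 3 of both. For Mcm5 they were 955, 1019.8 and 1915 in CKO and 1469, 866 and 1224 in Ctrl cells, and the direction changed between pairs 1 and 2. Uhrf1, which keeps DNA methylation through replication, was 313, 435 and 893 in CKO and 282, 337 and 601 in Ctrl cells. CKO was the higher array of each pair, but the values of replicate 3 stood apart from the rest in both genotypes (difference 0.36, standard error 0.44, adjusted p = 0.94, limma). Pcna, the sliding clamp of the DNA polymerases, was above background on 4 arrays, 2 of each genotype, at 6.35, 9.67 and 21.5 in CKO and 10.7, 16.5 and 8.55 in Ctrl cells. Cdc6, which loads the helicase, was chosen after its values were seen for its spread, from 1.38 in CKO replicate 2 to 87.7 in CKO replicate 3, and from 11.7 in Ctrl replicate 1 to 47.4 in Ctrl replicate 3.

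The 4 genes of nucleotide supply had a median log2 difference of 0.02, and both arrays of replicate 3 were above the other 4 for all 4 of them. Rrm2, a subunit of ribonucleotide reductase, was 29.1, 37.8 and 81.1 in CKO and 38.0, 34.8 and 97.0 in Ctrl cells (difference -0.18, standard error 0.50). Tyms, thymidylate synthase, had 131, 140.1 and 309.8 in CKO and 139, 167 and 241 in Ctrl cells (difference 0.01, standard error 0.39). For Tk1, thymidine kinase, the values were 67.1, 100.4 and 188 in CKO and 73.0, 121 and 136 in Ctrl cells (difference 0.03, standard error 0.42). A dimmer Tk1 probe, above background on 2 arrays that were both CKO, differed by 1.04 (standard error 0.39, unadjusted p = 0.0289, limma). On the probes used, the replicate spread of each of these genes was larger than the genotype difference.

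**Figure D2:**
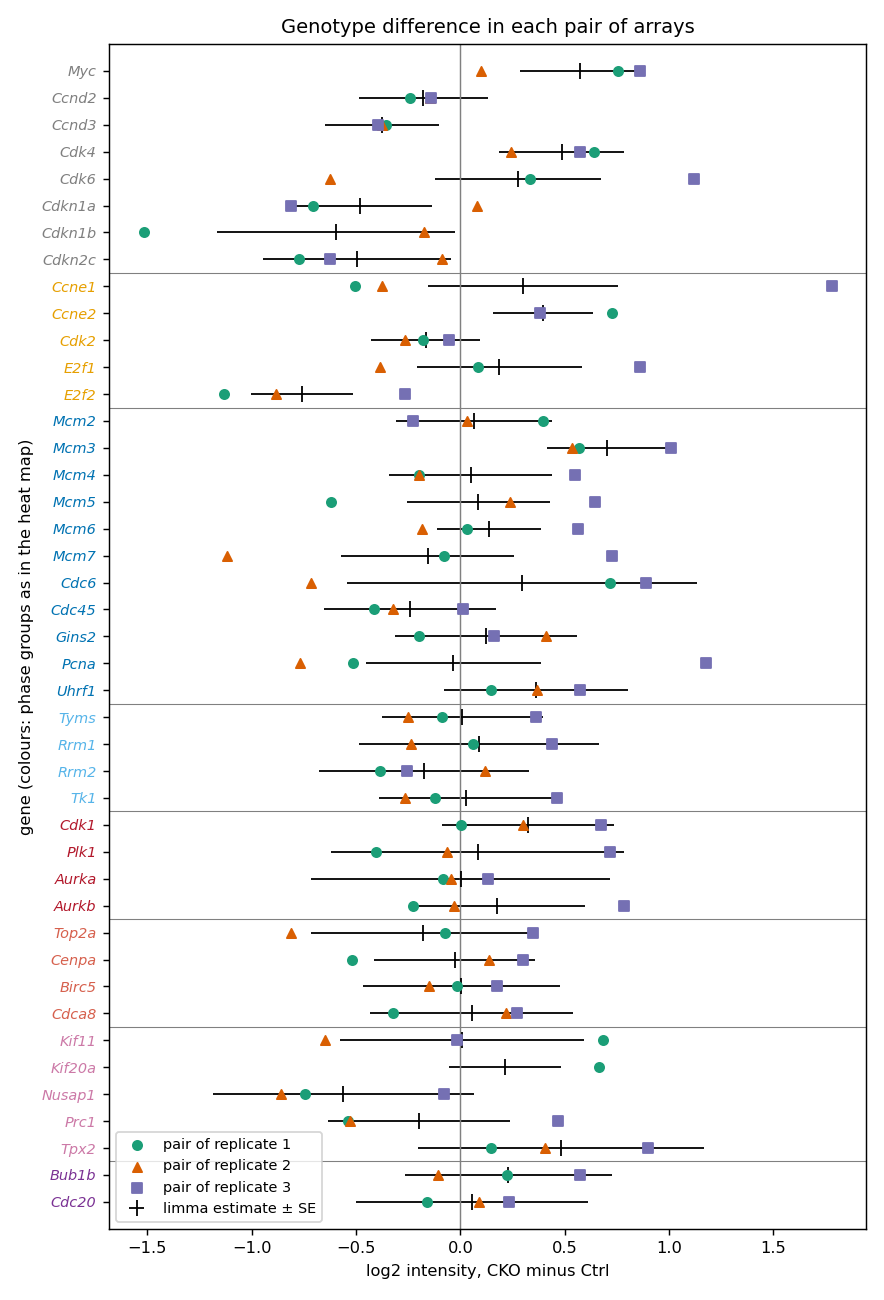
Log2 difference in intensity, CKO minus Ctrl, of the 43 genes (rows) in the pair of replicate 1 (circles), 2 (triangles) and 3 (squares), with the limma estimate and its standard error (black), leaving out pairs with both arrays under background. E2f2 lies left of 0 and Mcm3 right of 0 in all 3 pairs, while the squares of most replication genes lie to the right of their circles and triangles.

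The mitotic genes, in 4 groups with 21 genes of which 15 were tested, were highest in replicate 3 of both genotypes for all but 1 gene. Their median log2 difference, CKO minus Ctrl, was 0.06, none passed the study's thresholds between genotypes, and the pairs had medians of -0.08, -0.05 and 0.32. Plk1, the Polo kinase that drives centrosome maturation and spindle assembly, had intensities of 159, 232 and 1002 on CKO arrays and of 210.4, 242 and 610.3 on Ctrl arrays. Replicate 3 was far above replicates 1 and 2 in both genotypes, and CKO was lower in pairs 1 and 2 and higher in pair 3. The difference was 0.08 with a standard error of 0.70. Cdk1, the kinase of cyclin B, was 184, 165 and 418 in CKO and 183, 134 and 262 in Ctrl cells (difference 0.32, standard error 0.41). Its Ctrl arrays lay closer together than its CKO arrays, with replicate 3 again the highest of each. Aurkb, the Aurora kinase of the chromosomal passenger complex, had 84.8, 79.0 and 223 in CKO and 99.2, 80.6 and 129 in Ctrl cells (difference 0.18, standard error 0.42).

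Top2a, the topoisomerase that untangles sister chromatids, read 196, 108 and 481 in CKO and 206, 189.8 and 378 in Ctrl cells (difference -0.18, standard error 0.54). Birc5, or survivin, which with Aurkb corrects faulty spindle attachments, had 199.7, 188 and 510.2 in CKO and 202, 209 and 452 in Ctrl cells, and its difference was 0.00 (standard error 0.47). In both genes the array of replicate 3 was the highest of each genotype, by more than any difference within a pair. Kif11, the motor that pushes spindle poles apart, was 56.9, 33.8 and 125 in CKO and 35.4, 52.9 and 127 in Ctrl cells, with opposite signs in pairs 1 and 2. Cdc20, the activator of the APC/C, had 218, 249.9 and 739 in CKO and 243, 235 and 628 in Ctrl cells (difference 0.06, standard error 0.55). Its 3 further probes above background also read highest in replicate 3 of each genotype. Nusap1, a spindle protein chosen after its values were seen, was the mitotic gene with the lowest CKO level relative to Ctrl, at 35.1, 53.4 and 172 in CKO and 58.8, 96.9 and 181 in Ctrl cells (difference -0.56, standard error 0.63, adjusted p = 0.93, limma).

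Many of the 43 genes were thus highest in replicate 3 of both genotypes. Replicate 3 was at least 1.5-fold above replicate 2 in both genotypes for 22 of the 43 genes, where 5.84% of all genes were, and at least 1.5-fold below for 1 gene, Cdkn1b, where 4.78% were. Both arrays of replicate 3 were above the other 4 arrays for 28 of the 43 genes, where 13.6% of all genes were. Of the 15 mitotic genes 13 were 1.5-fold higher in both genotypes and 14 had both arrays of replicate 3 highest, Kif20a being the exception. The median log2 difference, replicate 3 minus replicate 2, of the mitotic genes was 1.48 in CKO and 0.97 in Ctrl cells, that of the 11 licensing and fork genes 1.13 in CKO and 0.66 in Ctrl cells, and that of the 8 G1 regulators -0.01 in CKO and -0.37 in Ctrl cells. With replicate 1 in place of replicate 2 the count was 21 of 43, where 11% of all genes were 1.5-fold higher. There is 1 array for each genotype in a replicate, so these values are a description with no test. The myeloid and erythroid marker sums given above were also highest in replicate 3, and their part in this result was not tested. The median log2 deviation of the mitotic genes from their means over the 6 arrays was -0.53 in CKO and -0.41 in Ctrl cells of replicate 1. In replicate 3 this deviation was 1.05 in CKO and 0.71 in Ctrl cells.

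**Figure D3:**
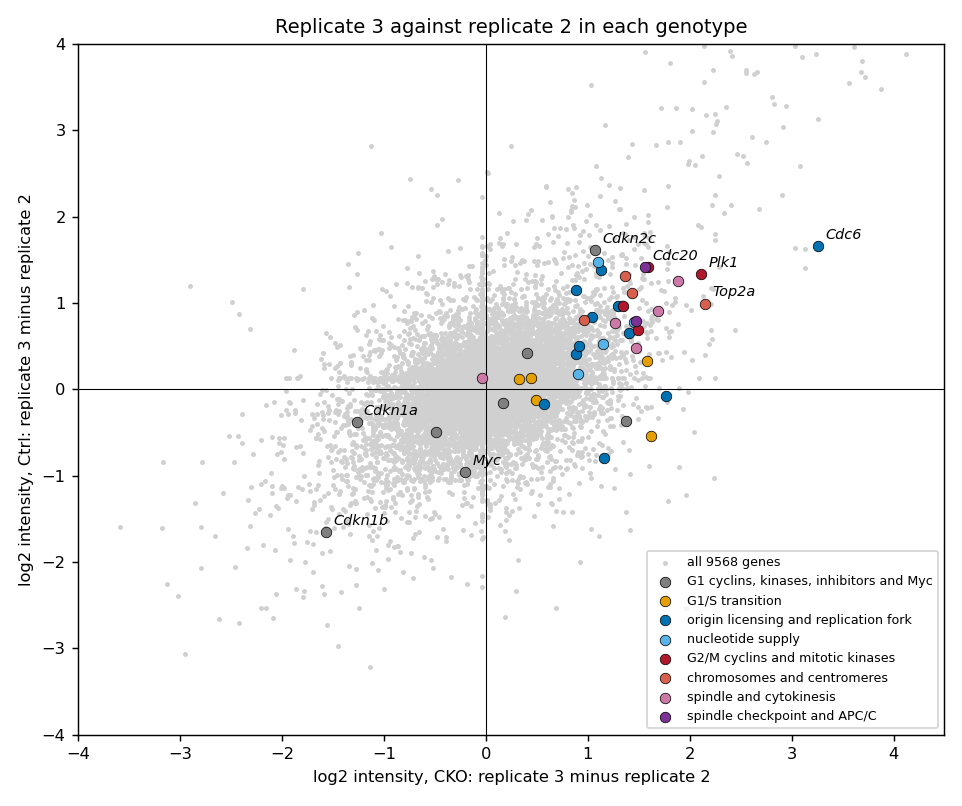
Log2 intensity of replicate 3 minus replicate 2 in CKO (horizontal axis) and in Ctrl cells (vertical axis) for all 9568 genes (grey) and the 43 cell cycle genes (coloured by phase), with 24 genes beyond the axes. The mitotic genes other than Kif20a and most replication genes lie in the upper right. Of the G1 regulators, Myc, Ccnd2, Cdkn1a and Cdkn1b lie in the lower left, Ccnd3 and Cdkn2c in the upper right, and Cdk4 and Cdk6 in neither.

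The start site windows of the mitotic genes were searched for the same letters, as were those of the other phase groups. The 300-base windows of Plk1 (chr7:122159185-122159484, plus strand), Cdc20 (chr4:118437294-118437593, minus strand) and Aurka (chr2:172370521-172370820, minus strand), a mitotic Aurora kinase chosen after its values of 74.3, 133 and 401 in CKO and 78.6, 137 and 366 in Ctrl cells were seen, are shown with CCAAT and CHR letters in capitals (RefSeq, GRCm38.p6).
Plk1: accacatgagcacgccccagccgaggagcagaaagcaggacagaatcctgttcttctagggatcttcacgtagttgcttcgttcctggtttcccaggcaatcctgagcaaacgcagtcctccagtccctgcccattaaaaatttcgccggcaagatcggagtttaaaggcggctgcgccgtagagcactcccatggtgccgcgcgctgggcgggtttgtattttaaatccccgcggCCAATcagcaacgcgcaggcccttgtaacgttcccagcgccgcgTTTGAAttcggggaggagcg
Cdc20: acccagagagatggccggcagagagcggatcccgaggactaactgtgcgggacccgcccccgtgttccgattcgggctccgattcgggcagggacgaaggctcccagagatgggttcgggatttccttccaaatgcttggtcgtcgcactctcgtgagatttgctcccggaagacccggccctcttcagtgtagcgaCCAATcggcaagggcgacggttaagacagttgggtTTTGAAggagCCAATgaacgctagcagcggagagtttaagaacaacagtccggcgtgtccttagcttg
Aurka: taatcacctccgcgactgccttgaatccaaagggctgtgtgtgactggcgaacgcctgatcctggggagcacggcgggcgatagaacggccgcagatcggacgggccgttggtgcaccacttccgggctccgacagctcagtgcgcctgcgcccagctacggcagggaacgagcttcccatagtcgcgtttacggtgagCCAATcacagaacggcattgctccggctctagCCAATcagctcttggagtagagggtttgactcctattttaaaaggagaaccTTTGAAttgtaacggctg
In each window CCAAT letters stand upstream of the start and CHR letters within 33 bases of it. In many mitotic promoters these elements, bound by NF-Y and by the DREAM complex, together restrict transcription to G2 and M phase. Whether these letters have a part in the values of replicate 3 was not tested.

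Windows were found for 41 of the 50 genes, 48 in all. CCAAT letters were in 16 of the 18 windows of mitotic genes (88.9%) and CHR letters in 13 (72.2%), where 37.4% and 17.9% of all windows hold them. These windows include those of Ccnb1, Ccnb2, Cenpe, Bub1 and Ube2c, which were not tested, and overlapping windows of Prc1. The windows of Birc5 and Nusap1, both highest in replicate 3 of each genotype, held neither CCAAT nor CHR letters. In the 20 windows of the G1/S, replication and nucleotide genes, E2F letters were in 8 (40%) and CHR letters in 3 (15%), while CCAAT letters were in 15 (75%). The 9 windows of G1 regulators and Myc held CCAAT letters in 3 and neither CHR nor E2F letters. The Blimp1 core was in 8.63% of all windows and in 2 of the 48, those of Cdk2 and Uhrf1, neither of which passed the study's thresholds. Such matches describe the letters in a window and are neither sites nor causes.

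Lists of further genes of the same processes, 130 in all with 95 tested, were read beside the 50. None passed an adjusted p of 0.05 in limma, and 7 had an unadjusted p under 0.05 (8.05% of all genes). Of the 23 tested G1 regulators 5 were lower (4.36% of all genes) and 1 was higher (3.07% of all genes) in CKO cells by the study's thresholds, and 12 were lower (17.2% of all genes) and 3 higher (17.1% of all genes) in all 3 pairs. Of 31 tested replication genes none was called in either direction, and of 41 tested mitotic genes 1 was higher. The count of 6 among the G1 regulators was 3 without both arrays of replicate 3. These lists were chosen with earlier results of these data known, and the count for the G1 regulators was added after seeing the data. The shares of all genes beside it are thus a description and no test. Gadd45a, which slows the cycle after stress, read 20.3, 16.8 and 19.4 on CKO arrays and 85.0, 63.9 and 35.3 on Ctrl arrays. Every CKO array was below every Ctrl array (difference -1.62, standard error 0.34, adjusted p = 0.15, limma). A second Gadd45a probe differed by -1.56.

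Mxd1 and Mxd4 encode Max partners that oppose Myc at its target genes. For Mxd1 the intensities were 144, 60.8 and 52.9 in CKO and 249, 236 and 225 in Ctrl cells, close together in Ctrl and with CKO replicate 1 above the other CKO arrays but below every Ctrl array (difference -1.61, standard error 0.38, adjusted p = 0.19, limma). On a dimmer Mxd1 probe the groups overlapped, with a difference of -0.27. For Mxd4 they were 102, 69.5 and 76.8 in CKO and 203, 125 and 165 in Ctrl cells, again without overlap (difference -0.98, standard error 0.27, adjusted p = 0.29, limma), and a second Mxd4 probe differed by -1.64. Cdkn2b, which encodes the Cdk4 and Cdk6 inhibitor p15, was 76.0, 101 and 89.6 in CKO and 198, 268 and 135 in Ctrl cells (difference -1.13, standard error 0.30, adjusted p = 0.26, limma). Rb1, the retinoblastoma protein that holds E2F factors, had 111, 111 and 118 in CKO and 154, 261 and 175 in Ctrl cells (difference -0.76, standard error 0.26, adjusted p = 0.42, limma), and its second probe differed by -0.41. For Cdkn2b and Rb1, too, CKO arrays lay below Ctrl arrays without overlap. Rbl1, a relative of Rb1 named after its values were seen, had 30.8, 22.8 and 39.9 in CKO and 17.8, 19.1 and 30.0 in Ctrl cells, higher in CKO in each pair with overlapping groups (difference 0.49). The myeloid marker sum, mostly S100a8 and S100a9, was also lower in CKO than in Ctrl in every pair. Single markers differed from the sum in pairs 2 and 3. In pair 3 Csf1r was higher in CKO (log2 difference 0.59). In pair 2 S100a8, S100a9 and Csf1r were lower in CKO. Lyz2 (log2 difference 1.05), Cd14 (0.98), Fcer1g (0.65), Tyrobp (0.52) and Mpo (0.39) were higher. The part of myeloid transcripts in these results was not tested.

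In the other direction, E2f5, an E2F factor that acts with retinoblastoma relatives as a repressor, had 216, 232 and 304 in CKO and 125, 169 and 184 in Ctrl cells (difference 0.66, standard error 0.26, adjusted p = 0.51, limma). Kif15, a spindle motor that can act in place of Kif11, was 761, 672 and 502 in CKO and 279, 331 and 254 in Ctrl cells. It was higher in CKO in each pair by 1.45, 1.02 and 0.98 on the log2 scale and had no peak in replicate 3, unlike 24 of the 41 tested genes of its list, which were 1.5-fold above replicate 2 there in both genotypes (difference 1.15, standard error 0.25, adjusted p = 0.16, limma). Its other 3 probes were not above background.

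**Figure D4:**
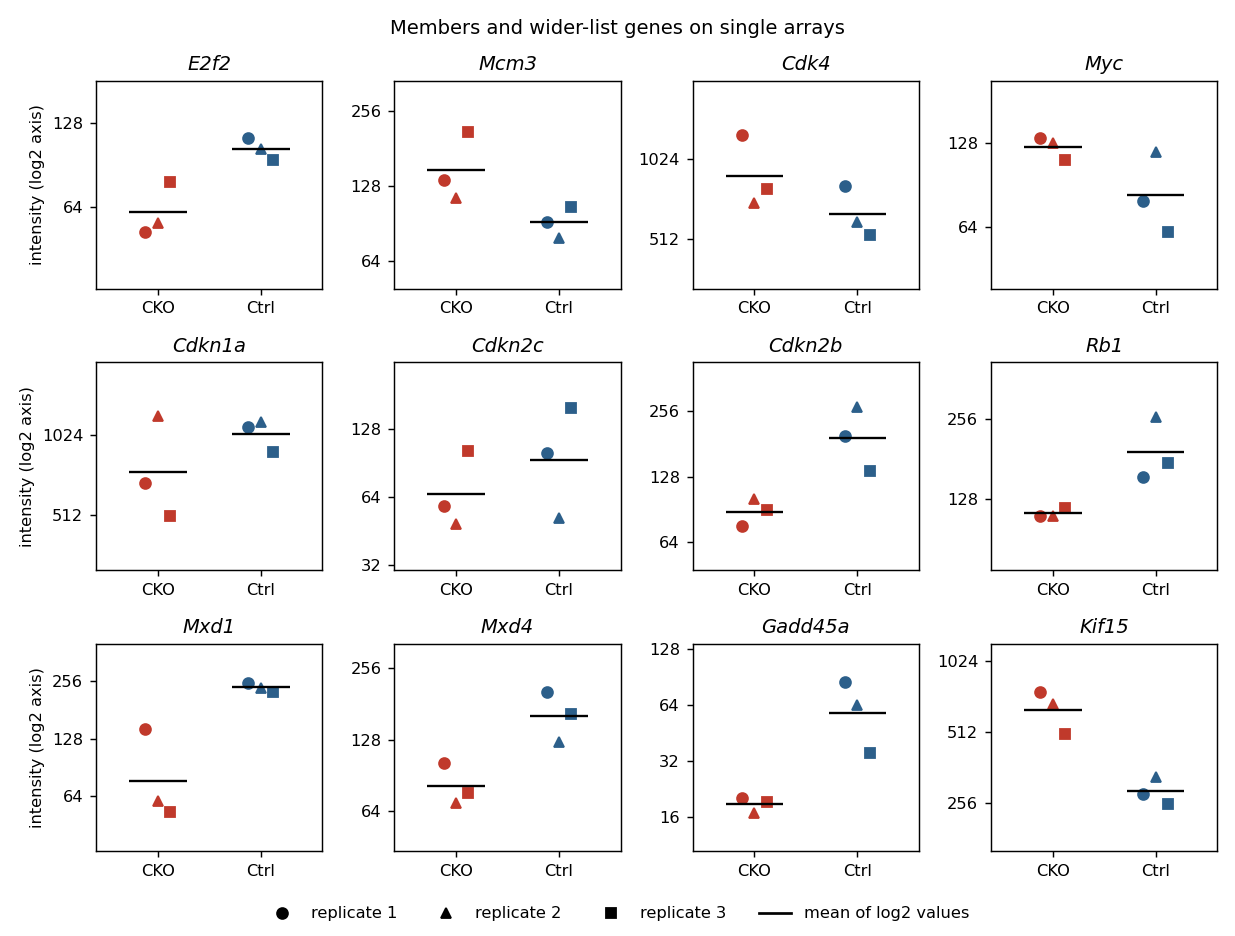
Intensity (log2 axis) of 12 cell cycle genes on single CKO (red, left) and Ctrl (blue, right) arrays, with replicates 1, 2 and 3 as circles, triangles and squares and the mean of the log2 values as a bar. CKO and Ctrl points do not overlap for E2f2, Mcm3, Cdkn2b, Rb1, Mxd1, Mxd4, Gadd45a and Kif15, and overlap for Cdk4, Myc, Cdkn1a and Cdkn2c.

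With the replicate number as a block, so that CKO and Ctrl arrays were compared within pairs, none of the 43 genes passed an adjusted p of 0.05 in limma, where 1.91% of all genes did, and 5 of 43 had an unadjusted p under 0.05, where 16% of all genes had. These 5 were Mcm3, E2f2, Myc, Cdk4 and Nusap1, with adjusted p-values of 0.14 for Mcm3 and 0.17 for E2f2. Of the further genes, Gadd45a, Kif15 and Mxd1 passed in this fit, with adjusted p-values of 0.0403, 0.0424 and 0.0464 in limma. The slide of replicate 1 holds only 1 array of each genotype, so a comparison between slides could hardly detect a difference. Finding no gene would therefore not show an equal genotype effect on both slides, or with and without the P+I letters. With this limit, the genotype difference was also compared between the slide of replicate 1 and that of replicates 2 and 3. It differed for none of the 43 genes at an unadjusted p under 0.05, where 2.37% of all genes did, and for none of all 9568 genes at an adjusted p under 0.05 in limma.

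Of the 7 genes that were not tested, Ccnb1 and Mki67 had no named probe, Ccna2, Ccnb2, Cenpe and Ube2c were above background on no array, and Bub1 was above background on 1. Ccnb1 and Mki67, the gene of the proliferation marker Ki-67, were thus not measured here. Ccna2 and Ccnb2, which encode an A and a B cyclin, were measured but gave no signal above background. A further probe above background was at hand for 21 of the genes, 32 probes in all, and 23 of these had the same sign of difference as the probe used.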

How the data were processed

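Total RNA of sorted CKO and Ctrl pTreg cells (3 arrays each, described as biological replicates) was hybridised to Illumina MouseWG-6 v2 arrays. The deposited values are probe intensities that the authors had exported from GenomeStudio, with 35.4 to 36% of values below 0 as after background subtraction. Sorted values were 99.7% equal between CKO and Ctrl replicate 1, as after quantile normalization within slide 1. They were 4.19% equal between Ctrl replicates 1 and 2, which lie on different slides. Arrays of slide 2 were not compared with each other in this way. The study's methods name quantile normalization and limma. Here the intensities were quantile normalized over all 6 arrays, set to at least an array's background (6.17 to 9.51) and taken to log2. Of 45281 probes 34885 had 1 symbol in the platform annotation, 18 several and 10378 none, and probes with several were named for no gene. The brightest probe of a gene was kept if above background on at least 2 arrays, and CKO was compared with Ctrl in limma 3.58.1 (R 4.3.3), with Benjamini-Hochberg adjustment over 9568 genes. The procedure was tested on simulated data.

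The CKO and Ctrl samples of a number were treated as a pair. The labels give those of replicates 2 and 3 a shared day, and those of replicate 1 share a slide. The deviations of paired samples from the group means correlated at 0.51, 0.49 and 0.56 over genes. Arrays of unlike numbers were not compared in this way, so these correlations alone do not show the pairing. Named were genes at the study's thresholds, a set taken for textbook roles, and genes of the wider lists at those thresholds in one direction in all pairs. The genes, lists and tests were chosen with earlier results of these data known. Alternatives were the normalization, floor, filter, choice of probe, variance prior, replicate and slide blocks and left-out arrays; the count for replicate 3, that for the wider G1 list and the rule that leaves out pairs with both arrays under background were added after seeing the data. The number of arrays limits the precision. No group of samples was left out, and 0 per-sample columns were unused.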

Additional observations from a re-analysis of the deposited data

How the results depend on the processing

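With 3 arrays a group, the number of arrays limits the precision. None of the 43 genes passed an adjusted p under 0.05 in limma in any of the 18 other settings. Over all genes the count was 26 in the reported fit, 43 with a pseudocount of 16, 154 without a filter on dim probes, 16 with the slide as a block and between 0 and 10 with arrays left out. A block for the replicate number gave 183 over all genes and 0 of the 43, and the genes past the study's thresholds numbered 1158 against 711, with 2 of the 43 in both fits. Of the further genes, Mxd1, Gadd45a and Kif15 passed with the block, as the text gives, and without the filter on dim probes, at adjusted p-values of 0.0189 for Mxd1, 0.0109 for Gadd45a and 0.0423 for Kif15 (limma). The block changed no other call of a named gene.

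The count of the 43 genes past the study's thresholds was 2 or 3 in the settings that kept all arrays, and between 0 and 5 with arrays left out. The median difference of the 43 genes was between 0.05 and 0.09 with all arrays and between -0.37 (without CKO replicate 3) and 0.28 with arrays left out. The median of the G1 regulators among them was -0.06 with the mean of a gene's probes, against -0.28. The count of 6 among the further G1 regulators ran between 3 and 7 with arrays left out, and the 22 genes higher in replicate 3 were 17 to 22 in other settings, 17 with the mean of a gene's probes. The difference of Kif11 was -0.012 on the deposited values without normalization over all arrays, against 0.0060, and that of Pcna was 0.0055 with a pseudocount of 16 and 0.16 with the 99th percentile as background, against -0.03; the cause was not tested. With arrays left out, the log2 difference took both signs, between -0.15 and 0.43 for Mcm2, -0.39 and 0.23 for Tyms, -0.37 and 0.37 for Tk1, -0.71 and 0.62 for Plk1, -0.46 and 0.38 for Birc5, -0.50 and 0.52 for Cdc20, -0.50 and 0.52 for Kif11, -0.40 and 0.032 for Ccnd2, -0.65 and 0.33 for Pcna, -0.60 and 0.29 for Rrm2, -0.23 and 0.44 for Mcm5, -0.75 and 0.32 for Top2a, -0.44 and 0.71 for Ccne1, -0.26 and 0.53 for E2f1, -0.064 and 0.70 for Uhrf1, -0.10 and 0.57 for Cdk1, -0.30 and 0.44 for Aurkb, -0.16 and 1.14 for Tpx2 and between -0.15 and 0.73 for Cdk6.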
